A study of Mus musculus with 4 samples.

Results

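The RNAs described here are 7 noncoding transcripts, most of them antisense to a protein-coding gene or known to stay in the nucleus: Malat1, Neat1, Gm43221, AY036118, B430010I23Rik, Gm15655 and Adap2os. They were selected on earlier results from these same counts, by their share of a cell's transcripts against its depth and mitochondrial content, so those relations are given as descriptions with no test. All 7 were listed in each of the 4 count tables, out of 16342 genes listed in any table. The label "nuclear-retained" is textbook knowledge for Malat1 and Neat1. The counts cannot show where in the cell an RNA lies, and for the other members the name is used only as the label of the list.

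The cells were live, nucleated, CD11b-positive cells sorted from brain tissue, the corpus callosum, taken from C57BL/6 males 13 weeks old, and were sequenced with a droplet kit that reads transcript 3′ ends. CD11b is a surface integrin of microglia and other myeloid cells. Of the 4 libraries, 2 came from untreated mice (week 0) and 2 from mice on Cuprizone (week 5), which chelates copper and leads to oligodendrocyte death and demyelination. The labels name no other allele or agent, and do not say whether the libraries of a week are separate animals, so a p-value measures the spread between these libraries, which may be technical.

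Each table held 1000 barcodes with 2415001 to 6559032 unique molecular identifiers (UMIs, 1 per captured RNA molecule), and 3707 cells were kept in all. The libraries were unlike in depth: the median kept cell had 1527 and 3919 UMIs in week 0 replicates 1 and 2, and 6133.5 and 2495.5 UMIs in week 5 replicates 1 and 2. Cells under 2000 UMIs made up 64.5% and 16.8% of the kept cells at week 0, and 24.4% and 46.3% at week 5. Depth moves with library, and its part in the levels of whole libraries was not tested. Of the kept cells, 3563 were microglia-like, with all 11 microglia markers detected in every library. Another 76 were border-associated macrophage-like and 15 oligodendrocyte-like, the latter in week 5 only. Libraries shared at most 2 of their barcodes.

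Malat1 is a long RNA of nuclear speckles, the bodies in which splicing factors are stored. Neat1, transcribed next to it, is the RNA scaffold of paraspeckles, bodies that hold back certain RNAs and proteins and that grow under stress. Neither the Malat1 end nor that of the long Neat1 form is made by ordinary polyadenylation. RNase P cuts both RNAs behind a genome-encoded run of adenines, which folds back on uridine-rich stretches. The kit primes with a run of thymines, so such runs matter for how an RNA enters a count table.

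The 2 genes lie on the minus strand of chromosome 19, Malat1 at chr19:5795690-5802672 and Neat1 at chr19:5824708-5845478, with 22035 bases between them (GRCm38, the build called mm10 in the submitters' notes; GENCODE vM21). Transcript stretches of 80 bases around the adenine runs are printed 5′ to 3′ to show what a primer of thymines meets. Capitals mark runs of at least 4 adenines and the AATAAA signal.
Malat1, bases 6606 to 6685 of 6983, minus strand of chr19:5795988-5796067: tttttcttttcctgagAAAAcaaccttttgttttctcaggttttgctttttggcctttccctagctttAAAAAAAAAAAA
Neat1, end of the annotated transcript of 20771 bases, minus strand of chr19:5824708-5824787: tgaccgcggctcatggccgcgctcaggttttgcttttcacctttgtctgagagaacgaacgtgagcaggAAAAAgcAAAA
Neat1, end of the annotated transcript of 3004 bases, minus strand of chr19:5842307-5842386: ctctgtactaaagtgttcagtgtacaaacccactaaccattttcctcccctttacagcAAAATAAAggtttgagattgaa
The Malat1 stretch ends in a run of 12 adenines. The first and second stretches share a run of 16 bases, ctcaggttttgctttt, which was found in 2 of the 141767 annotated transcripts, these same 2. The third is the end of the shorter Neat1 form, where an AATAAA overlaps a run of 4 adenines.

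Of the other 5 RNAs, 4 are antisense to a protein-coding gene. Gm43221 (chr3:109000024-109002094, plus strand) is 1 exon of 2071 bases inside the span of Fam102b, with 0 bases of overlap with its exons. B430010I23Rik (chr8:41017468-41024216, plus strand) is antisense to Mtus1, and 18.7% of its exonic bases lie in Mtus1 exons. Gm15655 (chr8:115705078-115707233, plus strand) is antisense to Maf, a transcription factor of macrophages, and 100% of its exonic bases lie in a Maf exon. Adap2os (chr11:80158861-80177629, minus strand) is antisense to Adap2, and 14.8% of its exonic bases lie in Adap2 exons. AY036118 (chr17:39847113-39848035, minus strand) lies wholly inside an exon of Gm42418 on the other strand, and inside a ribosomal RNA annotation on its own strand. No source used here says whether counting used strand. Where an RNA and its partner overlap, reads from the 1 may therefore not be told from reads from the other.

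Of these, 3 also carry a long adenine run.
Gm43221, its last 80 bases, plus strand of chr3:109002015-109002094: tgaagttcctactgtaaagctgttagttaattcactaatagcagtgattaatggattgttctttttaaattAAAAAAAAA
Adap2os, bases 130 to 209 of 984, minus strand of chr11:80177421-80177500: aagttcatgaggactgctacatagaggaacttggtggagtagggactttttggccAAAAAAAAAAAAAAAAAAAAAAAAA
B430010I23Rik, bases 1600 to 1679 of 2349, plus strand of chr8:41023467-41023546: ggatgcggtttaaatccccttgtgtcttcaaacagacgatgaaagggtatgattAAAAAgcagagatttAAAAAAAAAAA
The runs are 9, 25 and 11 adenines long. A run of at least 8 adenines stands in 13.8% of all annotated transcripts, and one of at least 12 in 4.07%. The longest runs in AY036118 and Gm15655 are 4 and 6 adenines. The tables give counts per gene, so which site was primed was not tested.

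Malat1 took 7.47% and 4.93% of all kept UMIs in week 0 replicates 1 and 2, and 2.89% and 6.04% in week 5 replicates 1 and 2. The weeks overlap, and the deepest library has the lowest share. The median share per cell was 11.5%, 5.19%, 3.27% and 6.85% in the same order. The median number of Malat1 UMIs per cell, however, was 181, 202, 177 and 201, a far narrower range than that of the shares. Libraries whose median depths differ several times over thus had similar median counts of Malat1 UMIs per cell. The mean counts per cell were 190, 242, 195 and 215 UMIs in the same order.

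Within every library the Malat1 share was higher in shallower cells. In cells of 1000 to 2000 UMIs Malat1 made up 12.9% and 11.4% of UMIs at week 0, and 10.6% and 14.2% at week 5. In cells of 4000 to 8000 UMIs it made up 3.82% and 4.63% at week 0, and 3.17% and 4.10% at week 5. Each shallow value is above each deep value. These ranges of depth were chosen after the data were seen.

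Below 8000 UMIs the count per cell moved far less with depth. The median cell of 1000 to 2000 UMIs had 176, 160.5, 140.5 and 189.5 Malat1 UMIs in the 4 libraries, and the median cell of 4000 to 8000 UMIs had 214, 235, 193 and 241. Deeper cells differed by cluster. In week 0 replicate 2, a microglia-like cluster led by Fam110a had a median of 384 at 8000 UMIs or more. At 4000 to 8000 UMIs it had 236, and the median depths were 10798 and 4995. In week 5 replicate 1, a cluster led by Apoc1 had 191 and 170 in these ranges, at median depths of 14672 and 6950. The rank correlation (Spearman's rho, over the cells of a library) of the Malat1 share with total UMIs was -0.65 and -0.53 at week 0, and -0.77 and -0.72 at week 5. A share contains the total in its denominator. When share and total were taken from separate random parts of each cell's UMIs, the mean rho over libraries was -0.66, against -0.67 with all UMIs.

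**Figure D1:**
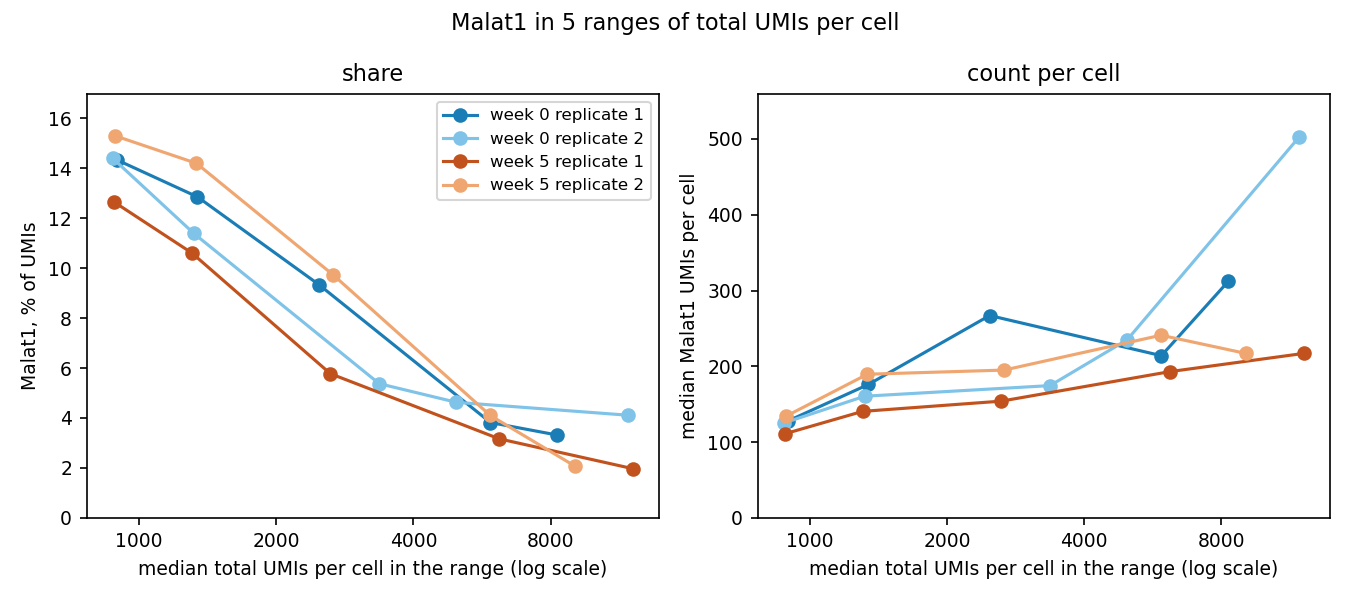
Malat1 in 5 ranges of total UMIs per cell, with 1 line per library. Left, Malat1 as a percent of UMIs is 12.6% to 15.3% in cells under 1000 UMIs and 1.97% to 4.11% in cells of 8000 or more; right, the median Malat1 UMIs per cell stay between 111 and 267 in all ranges below 8000 UMIs.

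Against the mitochondrial share of UMIs, Malat1 did not run in 1 direction. Over all kept cells rho was 0.23 and 0.05 at week 0, and 0.01 and 0.27 at week 5. In week 0 replicate 1 the Malat1 share was 11.7% of UMIs in cells under 0.5% mitochondrial UMIs, 4.81% in cells of 1% to 2%, and 11.9% in cells of 6% or more. In week 5 replicate 2 the same 3 ranges held 7.59%, 4.62% and 11.7%. In these libraries, cells at both ends of the mitochondrial range were rich in Malat1, and those between were less so. Week 5 replicate 1 had 6.53%, 3.30% and 9.32%, with its lowest share, 2.30%, at 4% to 6%, and week 0 replicate 2 had 5.65%, 4.37% and 12.7%.

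Within cells of 1000 to 2000 UMIs this pattern was mostly gone. In those of week 0 replicate 1 the Malat1 share was 12.9% under 0.5% mitochondrial UMIs, 12.9% at 2% to 4% and 12.4% at 6% or more. In week 5 replicate 1 these ranges held 11.5%, 10.5% and 9.99%, and in week 5 replicate 2 they held 15.03%, 14.7% and 13.2%. Week 0 replicate 2 is the exception, with 9.92%, 11.8% and 11.6% in the same ranges and 16.2% at 4% to 6%, from only 14, 29, 4 and 13 cells. Shallow cells poor in mitochondrial RNA therefore carried about as much Malat1 as other shallow cells. Under 2000 UMIs, cells below 0.5% mitochondrial UMIs held 13.0%, 11.2%, 11.9% and 15.1% Malat1 in the 4 libraries (109, 27, 37 and 52 cells), and the others held 13.1%, 12.7%, 10.8% and 14.3%. In cells of 4000 to 8000 UMIs the Malat1 share was lower at 2% to 4% mitochondrial UMIs than at 0.5% to 1% in each library. It was 3.55% against 4.34% and 4.29% against 4.98% in the week 0 libraries, and 3.05% against 3.26% and 3.23% against 4.57% in those of week 5, from 17 to 180 cells a value.

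**Figure D2:**
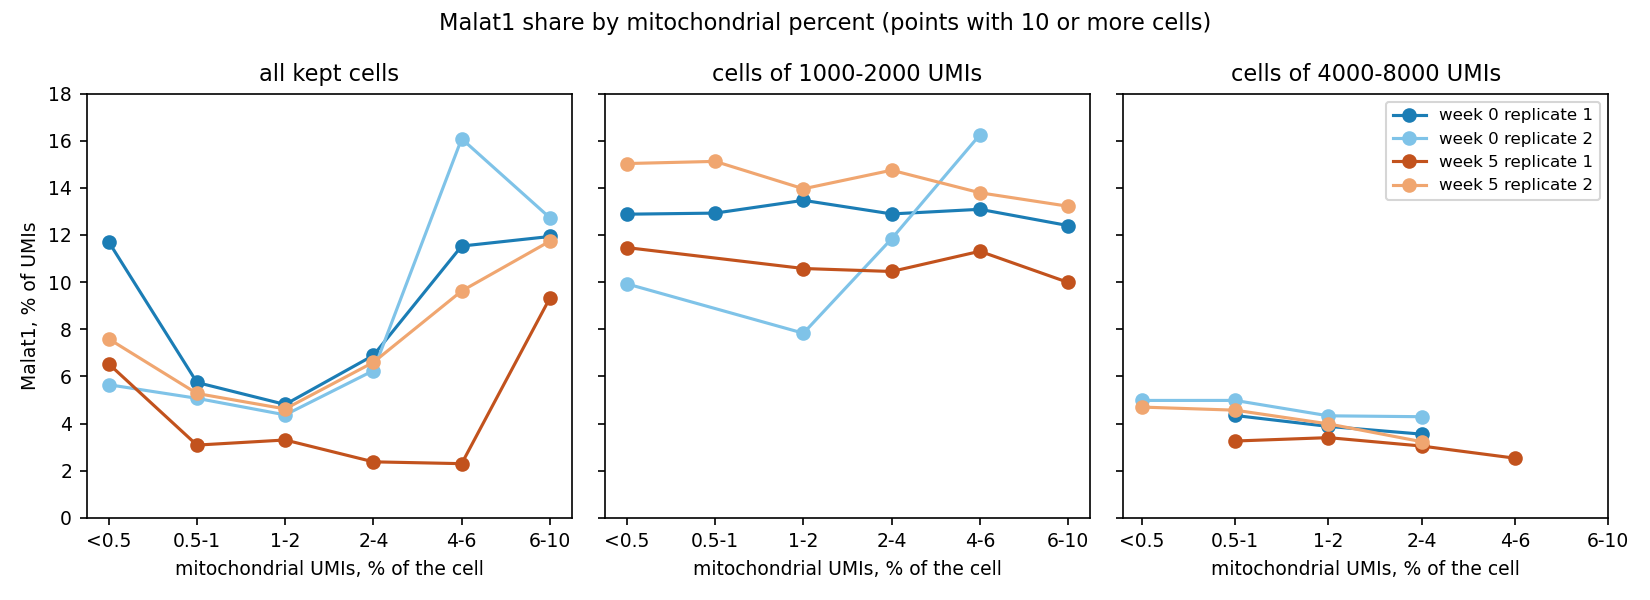
Malat1 as a percent of UMIs in 6 ranges of mitochondrial percent, for all kept cells and for 2 ranges of depth; each line is a library and points with fewer than 10 cells are left out. In all cells the share dips at 1% to 2% in 3 libraries and at 4% to 6% in week 5 replicate 1 (2.30%); within cells of 1000-2000 UMIs 3 of the libraries stay between 9.99% and 15.1%.

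The other members followed Malat1 to different degrees, and not all of them did so by rank correlation. The rho of the share with total UMIs was -0.39, -0.23, -0.47 and -0.53 for AY036118 in the 4 libraries. For Neat1 it was 0.04, 0.17, 0.13 and 0.05, and for Gm15655 0.04, 0.10, 0.01 and -0.01. Gm43221, B430010I23Rik and Adap2os had negative values except in week 0 replicate 2, at 0.07, 0.03 and 0.06. Levels pooled over the cells of a depth range gave another picture. Over all 7973 genes with at least 20 UMIs in both depth ranges together in every library, the ratio of UMIs per 1000000 UMIs (UPM) in cells of 1000 to 2000 UMIs over cells of 4000 to 8000 UMIs was computed on the log2 scale. At least 2-fold higher in shallow cells in all 4 libraries were 6 of the 7 members, against 2.60% of all genes; the members were chosen on this relation, so the count supports nothing. Only Neat1 missed it, and the members' median was 1.65 against 0.11 for all genes.

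Gm43221 had the highest ratio of the 7, with rank 2 among all genes compared. Its level was 337, 162, 233 and 324 UPM in shallow cells of the 4 libraries, and 35.0, 50.2, 33.2 and 25.9 in deep cells. The mean log2 ratio was 2.86, from 1.72 in week 0 replicate 2 to 3.63 in week 5 replicate 2. These levels rest on 18 to 211 UMIs a library in shallow cells and 43 to 86 in deep cells. Its count per cell was lower in the deep range than in the shallow range in 3 of the libraries, from 0.47 to 0.21 UMIs in week 0 replicate 1. In week 0 replicate 2 it was 0.22 and 0.26.

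AY036118, inside the ribosomal RNA annotation, had rank 4 with a mean log2 ratio of 2.52. It had 2520, 1848, 2689 and 2337 UPM in shallow cells of the 4 libraries, close to each other, and 687, 172, 738 and 308 in deep cells, which differ by library. In week 0 replicate 2 it was low already in cells of 2000 to 4000 UMIs, at 168 UPM against 2453, 2358 and 1689 in the other libraries. Gm42418, on the other strand at the same place, had a smaller ratio of 1.31.

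B430010I23Rik had a mean log2 ratio of 1.997, Adap2os of 1.60 and Gm15655 of 1.55, each lowest in week 0 replicate 2 at 1.05, 1.19 and 1.03. All 3 lie just inside the 2-fold limit in that library. Neat1 had a mean log2 ratio of 1.29, but 0.03 in week 0 replicate 2, there from 8 UMIs in shallow cells.

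The protein-coding genes on the opposite strands were far less tilted towards shallow cells. Fam102b had a mean log2 ratio of -0.09, Mtus1 of 0.13, Maf of 0.20 and Adap2, which encodes a protein that binds membrane phosphoinositides, of 0.67. In each of the 4 libraries every one of these genes was below the antisense RNA opposite to it. Fam102b, for instance, had 480, 397, 237 and 229 UPM in shallow cells and 420, 526, 273 and 227 in deep cells. The antisense RNAs were chosen on their relation to depth and the partners were not, so this contrast supports nothing. Reads that belong to a partner but were counted for the antisense RNA, or the reverse, would enter both values and were not tested.

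**Figure D3:**
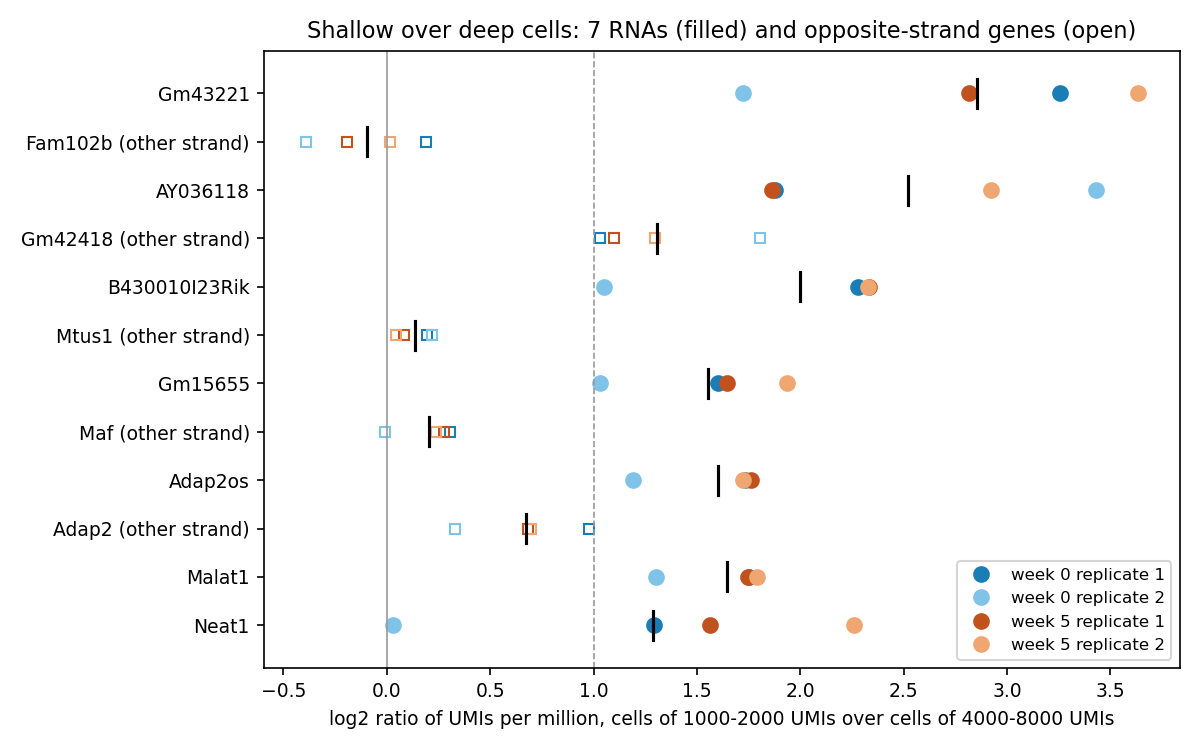
Log2 ratio of UMIs per 1000000 UMIs in cells of 1000-2000 UMIs over cells of 4000-8000 UMIs, for the 7 RNAs (filled circles) and the genes on the opposite strands (open squares); each point is a library, the black bar their mean and the dashed line 2-fold. The protein-coding partners lie near 0 (Adap2 at 0.67), and the antisense RNAs, which were chosen on their relation to depth, lie above 1 in every library.

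Genes whose products build the same nuclear bodies did not reach the 2-fold limit. Of the 16 paraspeckle protein genes none was 2-fold higher in all 4 libraries (median log2 ratio 0.69), nor was any of the 21 genes of nuclear speckle and splicing proteins (0.70), against a median of 0.11 over all genes. Of 18 other long noncoding RNAs with enough UMIs 4 (22.2%, against 2.60% of all genes) were 2-fold higher: Dleu2, the host of a tumour-suppressor microRNA pair, Mir142hg, the host of a microRNA of blood cells, Firre and Jpx. Another, Snhg6, was at least 2-fold lower in all 4 libraries (5.56% of the list, against 3.57% of all genes). Among 22 genes of RNA 3′-end processing and decay, 2 (9.09%, against 2.60% of all genes) were at least 2-fold higher in all 4 libraries. These were Pabpn1, the nuclear poly(A)-binding protein, and Zfc3h1, which takes polyadenylated nuclear RNA to the exosome. Of the 13 mitochondrial mRNAs 1 (7.69%) was 2-fold higher, mt-Cytb (list median 1.16).

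Ribosomal protein genes went the other way. In all 4 libraries 78 of 91 were at least 2-fold lower in shallow cells, against 3.57% of all genes, with a median log2 ratio of -1.9998. Summed, they held 1.65%, 2.54%, 2.39% and 3.20% of UMIs in shallow cells and 8.31%, 6.93%, 12.5% and 11.4% in deep cells of the 4 libraries. Each deep value is above each shallow value, so the depth ranges differ in the makeup of their RNA and not in the members alone.

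Across cells, the genes whose levels followed Malat1 most closely were Dleu2 (mean Pearson correlation 0.44 over the 4 libraries), AC149090.1 (0.42), Son (0.38), which encodes a core protein of nuclear speckles, AY036118 (0.37) and Srgap2 (0.36). They were ranked among genes seen in at least 25% of kept cells of every library, on log-scaled UMIs per 10000. With each cell thinned to 1000 UMIs and shallower cells left out, 277 genes could be ranked, against 1170 with all UMIs. Among these 277, Dleu2, AC149090.1 and Son stayed at the top, at 0.35, 0.34 and 0.33. AY036118 was not ranked there, as 18.4% of the thinned cells of week 0 replicate 2 had it. At the other end with all UMIs stood Tpt1 (-0.64) and the ribosomal protein genes Rps23 (-0.62) and Rplp1 (-0.62). All of these values share each cell's depth. For Neat1 the highest was Apoe at 0.16, a weak correlation in sparse counts and no finding.

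A small group of kept cells carried little or no Malat1. No Malat1 UMI was found in 3 and 0 cells at week 0 and in 6 and 25 cells at week 5, although the sort had gated on nucleated cells. These 34 cells had a median depth of 2975 UMIs. Ribosomal protein genes took 23.7% of the median cell against 5.79% in all kept cells. By library, median depth was 4592 UMIs against 1527 in all kept cells of week 0 replicate 1. It was 2902.5 against 6133.5 in week 5 replicate 1, and 2983 against 2495.5 in week 5 replicate 2. The ribosomal protein values were 22.9% against 1.81%, 13.2% against 11.2% and 24.6% against 5.23% in the same order. The 34 cells held 2 Neat1 UMIs, or 13.3 UPM (exact 95% Poisson interval 1.61 to 48.1, counting error only), against 124 in all kept cells (119 to 130). AY036118 was not so depleted, at 506 against 737 UPM.

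Cells with under 1% Malat1, a limit set after the data were seen, numbered 8 and 3 at week 0, and 78 and 51 at week 5. Of these 140 cells, 81 fell into a microglia-like cluster led by Apoc1, Fabp5, Apoc4, Cst7 and Spp1, found only in the week 5 libraries (177 and 37 cells). Another 17 were among the 22 cells of an unnamed cluster led by Ttr and Enpp2. Of the 34 cells without a Malat1 UMI, 20 fell into the Apoc1-led cluster and 7 into the Ttr-led one. Of those 20, 18 came from week 5 replicate 2. The Ttr-led cluster had the lowest Malat1 share of the 13 clusters, 0.85%, next to 1.34% in the Apoc1-led one. Its summed choroid plexus markers stood at 2271 UMIs per 10000. The members were left out of the genes used for clustering. The Apoc1-led cluster was deep, with a median of 13262.5 UMIs. In week 5 replicate 1, its 161 cells of 8000 UMIs or more had a Malat1 share of 1.30%, against 2.999% in 37 such cells of the Ddit4-led cluster and 2.36% in 57 of the Isg15-led cluster. The median Malat1 UMIs per cell were 191, 274 and 226, and the median depths 14672, 9047 and 9847 UMIs. At 4000 to 8000 UMIs the libraries were unlike. In week 5 replicate 1, 13 cells of the cluster had a Malat1 share of 2.78%, against 3.30% in the Ddit4-led and 2.82% in the Isg15-led cluster. In week 5 replicate 2, 14 of its cells had 1.73% (median cell 0.27%), against 4.14% and 3.62%. These are sets of cells within 1 library each, with no test.

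By cell class, Malat1 took 7.65%, 4.94%, 2.76% and 5.90% of the UMIs of microglia-like cells in the 4 libraries, and 5.12%, 3.61%, 4.50% and 4.06% of those of border-associated macrophage-like cells (16, 5, 29 and 26 cells). Neither class was higher in all libraries. The 15 oligodendrocyte-like cells were far richer, at 29.4% in week 5 replicate 1 (3 cells) and 42.6% in week 5 replicate 2 (12 cells). Gm15655 was listed at 198, 0, 280 and 150 UPM in macrophage-like cells and at 140, 54.1, 41.5 and 73.9 in microglia-like cells, in library order; the 0, from 5 cells, has an exact 95% Poisson limit of 126 UPM. Adap2os had 0 UMIs in the oligodendrocyte-like cells and in the 31 cells of the unnamed cluster led by S100a6 and Ccl5.

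Between the weeks, none of the 7 RNAs was called. UMI counts summed per library over kept cells were compared with edgeR's quasi-likelihood test over 11247 genes (Benjamini-Hochberg adjusted p under 0.05). The test called 2.69% of genes, and 0 of the 7 members at that threshold. At an unadjusted p under 0.05 it had 1, Neat1. DESeq2 called 1 of the 7, also Neat1, and 445 of 11247 genes. With limma-voom, 0 of the 7 and 244 of 11247 genes were called. Levels below are CPM, counts per 1000000 of the effective library size, and the 2 libraries of each week give the mean and its SD.

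Malat1 stood at 68682 and 45883 CPM in week 0 replicates 1 and 2, and at 34441 and 59300 in week 5 replicates 1 and 2. The means were 57282 ± 16121 (SD, n = 2) and 46870 ± 17578 (SD, n = 2), the weeks overlap, and each spread is larger than the difference. The log2 fold change was -0.29 (SE 0.69, edgeR adjusted p = 0.92). In cells of 4000 to 8000 UMIs, where depth is alike, the shares of 3.82% and 4.63% at week 0 and 3.17% and 4.10% at week 5 overlap as well.

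Neat1 was the member for which the weeks were set apart. Its level was 103 and 61.4 CPM in the untreated libraries and 144 and 215 in those of week 5, so that both week 5 libraries lie above both of week 0. Of all genes tested, 43.2% had weeks that do not overlap. The log2 fold change was 1.14 (SE 0.30, unadjusted p = 0.0037), which did not pass the adjustment (edgeR adjusted p = 0.091). With 2 libraries a week, an exact two-sided permutation test of 1 gene cannot go below p = 0.333.

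Values within ranges of depth and within cell classes were as follows. In cells of 1000 to 2000 UMIs, Neat1 rose: 170 and 72.1 UPM at week 0, from 106 and 8 UMIs, against 305 and 550 at week 5, from 72 and 243 UMIs. The log2 fold change there was 1.64 (SE 0.31, edgeR adjusted p = 0.00016), where 2.38% of 5930 genes were called. In cells of 4000 to 8000 UMIs it had 69.2 and 74.7 UPM at week 0 and 104 and 115 at week 5. The log2 fold change of 0.70 there was not called (SE 0.17, edgeR adjusted p = 0.063), while 1.97% of 10019 genes were. Both fits were added after the data were seen. The difference between the depth ranges was not tested.

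The 12 oligodendrocyte-like cells of week 5 replicate 2 held 152 of that library's 715 Neat1 UMIs, a level of 5409 UPM. Week 0 had no such cells. In microglia-like cells alone Neat1 had 95.6 and 64.3 UPM at week 0 and 111 and 170 at week 5, and the test called it by a narrow margin (log2 fold change 1.03, edgeR adjusted p = 0.0497; 3.39% of 11012 genes were called). It was also called in microglia-like cells of 1000 to 2000 UMIs (1.31, edgeR adjusted p = 0.015; 1.72% of genes) and of 4000 to 8000 UMIs (0.84, edgeR adjusted p = 0.012; 4.03% of genes). Summed oligodendrocyte markers were at 116 and 122 UPM at week 0 and at 202 and 148 at week 5, over 8 genes of which at most 1 was at 0 in a library. Without week 0 replicate 2 the log2 fold change was 0.80 and the edgeR adjusted p 0.54, while without any other library it was called.

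**Figure D4:**
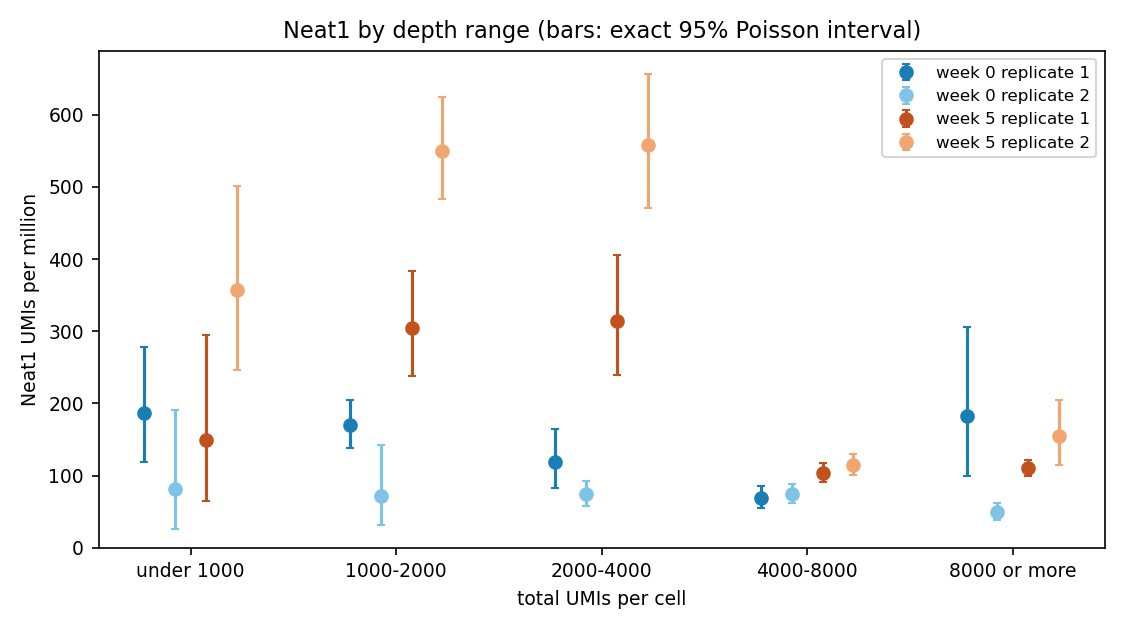
Neat1 in UMIs per 1000000 UMIs by range of total UMIs per cell and library, with exact 95% Poisson intervals that cover counting error only. The week 5 libraries stand above those of week 0 most in cells of 1000-2000 and 2000-4000 UMIs (305 and 550 against 170 and 72.1 in the first of these), and week 5 replicate 2 is the highest in 4 of the 5 ranges.

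The other 5 RNAs had overlapping weeks. Gm43221 had 152 and 43.0 CPM at week 0 and 40.6 and 70.8 at week 5 (log2 fold change -0.79, SE 0.48, edgeR adjusted p = 0.56). AY036118 had levels of 1363 and 205, against 974 and 730, (0.12, SE 0.65). For both, week 0 replicate 1, the library with the most shallow cells, is the highest. B430010I23Rik had 197 and 123 CPM at week 0 and 75.1 and 159 at week 5 (-0.45, SE 0.35), and Gm15655 had 128 and 49.9, against 56.5 and 72.6, (-0.45, SE 0.37). Adap2os had 290 and 147, against 188 and 396, (0.42, SE 0.40). The edgeR adjusted p of these 5 lay between 0.56 and 0.97.

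Single libraries decide the sign or size of several of these values. AY036118 had a log2 fold change of 2.05 without week 0 replicate 1. Gm43221 had -1.45 without week 0 replicate 2 and -1.19 without week 5 replicate 2, but 0.36 without week 0 replicate 1. B430010I23Rik had -1.04 without week 5 replicate 2. Adap2os was called higher in microglia-like cells of 4000 to 8000 UMIs (0.70, edgeR adjusted p = 0.023), where 4.03% of genes were called. It was called in no other setting tried.

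**Figure D5:**
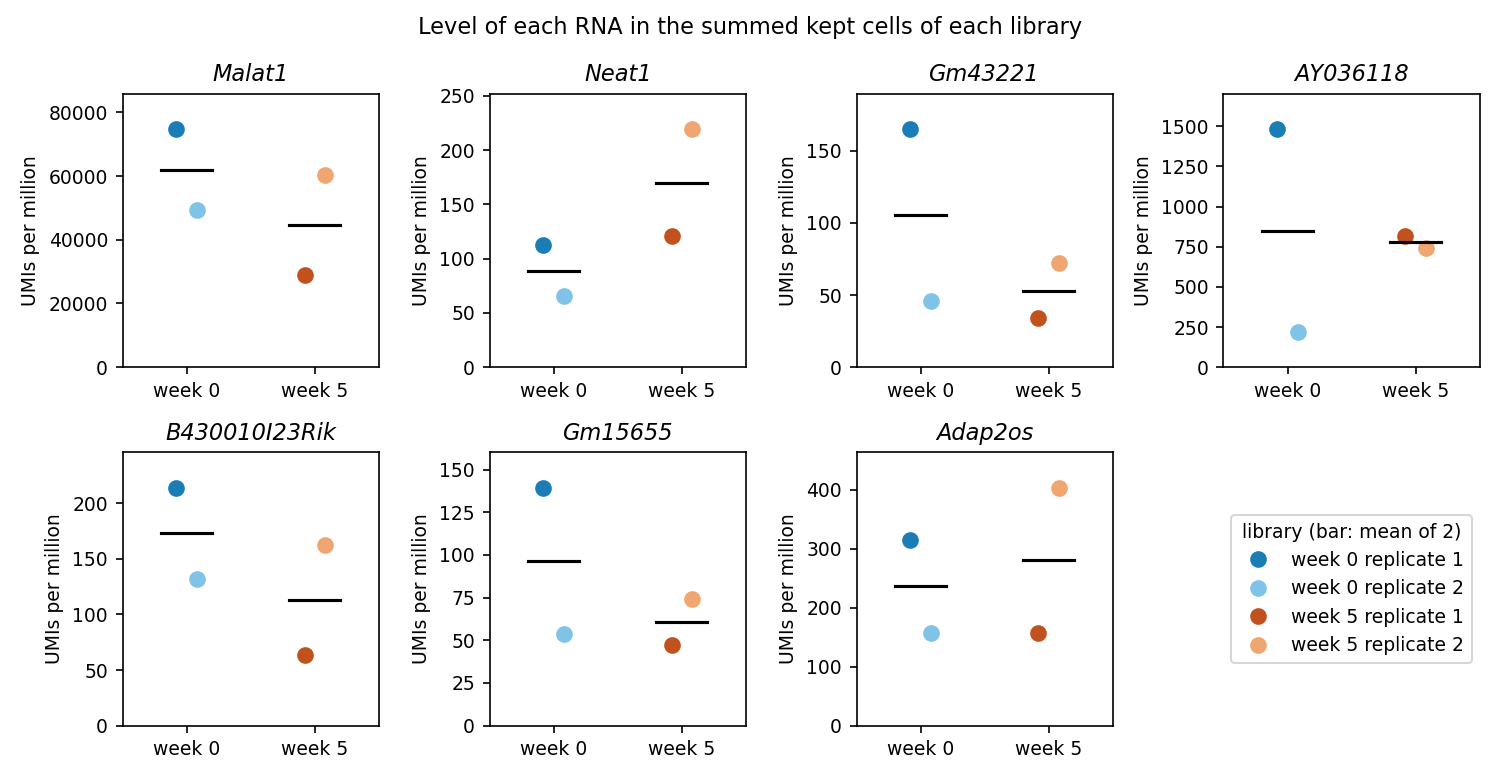
UMIs per 1000000 UMIs of each RNA in the summed kept cells of each library, with week 0 and week 5 side by side and a bar at the mean of each week's 2 libraries; every vertical axis starts at 0. Only Neat1 has both week 5 libraries (121 and 219) above both week 0 libraries (112 and 66.0).

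The opposite-strand genes were not called either in the fit over kept cells. Fam102b, across from Gm43221, had a log2 fold change of -1.04 (SE 0.26, edgeR adjusted p = 0.070). It was called lower in cells of 4000 to 8000 UMIs (-0.82, SE 0.18, edgeR adjusted p = 0.040), where 1.97% of 10019 genes were called. Over kept cells the others were as follows. Mtus1 had -0.69, Maf -0.53, Adap2 -0.22 and Gm42418 -0.28. Maf and Gm15655, which lie on each other's exons, thus had log2 fold changes of -0.53 and -0.45, with standard errors of 0.32 and 0.37.

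Proteins that work with these RNAs showed no called change in transcript level. Of the 16 paraspeckle protein genes 0 were called (median log2 fold change -0.09, against -0.01 over all genes), among them Hnrnpk at 0.06 and Sfpq at -0.24, both RNA-binding proteins. Of the 21 genes of nuclear speckle and splicing proteins 0 were called (median -0.12), among them Son at -0.26, Srrm2 at -0.21 and Snrnp70 at -0.20. Of 25 genes of RNA 3′-end processing and decay 0 were called (median -0.0047), among them Pabpn1 at -0.17, Rbm7 at 0.19 and Exosc8 at -0.03. Genes near the members gave 0 calls of 4, with Slc25a45 at -0.25 and Frmd8 at 0.41. Gm26917, another row at a ribosomal RNA locus, had 0.71 (edgeR adjusted p = 0.16).

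Of 26 other long noncoding RNAs tested 3 rose and 0 fell, where 2.69% of all genes were called, and the list median was 0.10: Gas5, a host of small nucleolar RNAs, from 147 ± 15.2 to 353 ± 94.8 CPM (SD, n = 2; log2 fold change 1.27, SE 0.27, edgeR adjusted p = 0.039), Snhg6 by 1.69 and Epb41l4aos by 1.43 on the log2 scale. The Gas5 transcript starts with a terminal pyrimidine tract, as do those of ribosomal proteins. Of 93 ribosomal protein rows 5 rose and 0 fell (median 1.25, against 2.69% of all genes called and a median of -0.01): Rpl35 by 1.73, Rps27rt by 1.68, Rpl22l1 by 1.59, Rpl10-ps3 by 1.23 and Rpl9-ps6 by 1.21, of which the rows named ps may share reads with their parent genes. Snhg6 and most ribosomal protein genes were also at least 2-fold lower in shallow cells, and the shares of shallow cells differ between libraries. The part of depth in these changes was not tested. Of 13 mitochondrial mRNAs 0 were called (median 0.48), among them mt-Co1 at 0.88, mt-Atp6 at 0.64 and mt-Co3 at 0.59, and of 12 immediate early genes 1 rose, Atf3, a transcription factor of the stress response, by 2.36 (edgeR adjusted p = 0.0027).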

How the data were processed

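The authors deposited raw UMI counts per gene and barcode, 1 table per library, not normalized; per the submitters' processing notes, STAR, Cell Ranger 3.0.0, Seurat 4 and mm10 were named, with no role given. How barcodes were chosen, and strand use, are not given in the sources used here. Cells with at least 500 genes, at most 10% mitochondrial UMIs and no doublet mark (scrublet, 21 of 3728 marked) were used. Clustering (scanpy 1.11.5; 30 components of 2000 variable genes, 15 neighbours, Leiden resolution 1) left out the members, mitochondrial and ribosomal protein genes. A cluster took a name other than microglia-like with at least 2 listed markers of that class, and none of another, among its 10 leading genes; it was microglia-like with fewer than 2 such markers and a microglia marker sum no less than 10 times that of each other class. Names needed 3 detected markers, and this rule was settled after the clusters were seen. Counts summed per library were tested with edgeR 4.0.16 (quasi-likelihood, TMM, its own filter on low counts); DESeq2 1.42.0 and limma 3.58.1 were alternatives. On simulated data for this contrast (11009 to 11053 genes, 200 changed, 5 runs) 49.5% of 2-fold changes were recovered and 99.6% of 4-fold ones, with 9.80% of calls false. Depth ratios used a prior count of 0.5. Library depth ran from 2415001 to 6559032 UMIs; counting intervals do not cover the spread between libraries. The members and gene lists were chosen with earlier results of these data known, and the ranges of depth and mitochondrial percent after the data were seen. Genes named from a list are all of its called genes where 6 or fewer were called, the 4 with the lowest p where more were, and the 3 with the highest mean level where none was; those like Malat1 or Neat1 are the 5 with the highest mean correlation. Sequences and positions come from the GENCODE vM21 transcripts and annotation of GRCm38. A gene that the naming rule selects is not reported here.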

Additional observations from a re-analysis of the deposited data

How the results depend on the processing

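The count of called members was 0 with limma-voom, with library size as the only scaling (2 of 7 at an unadjusted p under 0.05), with library size counted without mitochondrial genes and members, with no cell filter and in cells of 4000 to 8000 UMIs. It was 1 with DESeq2, in microglia-like cells, with 1 upper limit on genes per cell for all libraries, in cells thinned to 1000 UMIs, in cells of 1000 to 2000 UMIs and in microglia-like cells of that range; it was 2 with no gene filter (Neat1 and Gm43221) and in microglia-like cells of 4000 to 8000 UMIs, and 1 to 3 when a library was left out. Genes called, 302 of 11247, were 918 with no gene filter, 501 with that limit, 141 and 197 in cells of 1000 to 2000 and 4000 to 8000 UMIs, 98 in microglia-like cells of the first range, and 265 to 1341 when a library was left out (533 without week 0 replicate 1 and 1341 without week 5 replicate 2). Library size as the only scaling shifted the median over all genes from -0.01 to -0.24 on the log2 scale and gave 292 higher and 90 lower calls, against 274 and 28 in the reported fit. Of values with no call, AY036118 changed sign with library size as the only scaling (-0.12) and without mitochondrial genes and members in it (-0.17). In cells of 1000 to 2000 UMIs, and in microglia-like cells among them, the sign changed for Malat1 (0.050 and 0.035), Gm43221 (0.050 and 0.11) and B430010I23Rik (0.27 and 0.32). With a library left out, log2 fold changes ran from -0.69 to 0.053 for Malat1, 0.80 to 1.54 for Neat1, -1.45 to 0.36 for Gm43221, -0.68 to 2.05 for AY036118, -1.04 to 0.0057 for B430010I23Rik, -0.99 to 0.36 for Gm15655 and -0.16 to 0.98 for Adap2os. A week's lone library was then assumed to vary like those of the other week. The cause was not tested. Neat1 had a positive log2 fold change in all 18 alternatives and was called in 11 of them. A replicate block, with the replicate number as a term, called 379 genes and 0 members; samples with the same number did not deviate together (correlation -0.03 over 11247 genes), so the numbers are not taken as pairs. The mean rho of the Malat1 share with total UMIs stayed between -0.72 and -0.64 in all 9 alternatives. The near-zero mean rho of the Neat1 share with mitochondrial percent, -0.032, was -0.045 with no cell filter and -0.042 from separate parts of each cell. Pooled levels under 2000 UMIs were less even. Cells below 0.5% mitochondrial UMIs had 220, 102, 411 and 984 UPM of Neat1 in the 4 libraries, against 163, 70.2, 254 and 453 in the others. In week 0 replicate 2 such cells of 1000 to 2000 UMIs held 1 Neat1 UMI. The difference was not tested. Restricting the depth ratio to microglia-like cells left 6 of 7 members 2-fold higher in shallow cells. At the lowest counts, such as 8 Neat1 UMIs in 82 shallow cells of week 0 replicate 2, depth limits each value.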
